A study of Mus musculus with 8 samples.

Results

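Fatty acid synthesis and desaturation was followed here through 10 mouse genes, taken by name from the deposited table: Acss2, Acly, Acaca, Fasn, Elovl5, Elovl6, Scd1, Scd2, Fads1 and Fads2. All 10 were present among its 38911 entries other than spike-in RNAs, and all 10 passed the filter on low values, which left 21652 entries. Newly made RNA had been collected by 4sUDRB-seq from male mouse embryonic stem cells of strain 129, grown without feeder cells in serum with leukaemia inhibitory factor. Every library came from cells of the genotype Ythdc1_cKO, in which Ythdc1, the nuclear reader of N6-methyladenosine in RNA, can be deleted. For 4 days the cells received 4OHT (4-hydroxytamoxifen) at 1 μg/ml, which activates recombination in inducible lines, or DMSO, in which it is dissolved. All of them then received 100 μM DRB, which holds RNA polymerase II near promoters, for 3 h. After the wash the RNA was tagged with 1 mM 4sU for 8 or 0 min and pulled out through the tag. The 4 groups were 4OHT with an 8 min label, DMSO with an 8 min label, 4OHT with a 0 min label and DMSO with a 0 min label, of 2 libraries each. No library came from cells without the conditional alleles given 4OHT, and the driver of the recombinase is not given in the sources used here.

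In fatty acid synthesis, carbon enters as acetyl-CoA, which Acly makes from citrate and Acss2 from acetate. Acaca carboxylates it to malonyl-CoA, Fasn builds palmitate, Elovl6 and Elovl5 lengthen the chain, Scd1 and Scd2 place the first double bond in saturated chains, and Fads1 and Fads2 add further double bonds to polyunsaturated ones. The sterol-regulated transcription factors Srebf1 and Srebf2 are known activators of this pathway, and desaturases are needed for fluid membranes in dividing cells.

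Promoter sequence was available for 7 of the 10 genes as the 250 bases before the listed start (RefSeq, GRCm38.p6). Elovl5, Fads2 and Acly are shown because they span a gene with several different matches, a gene with a single match and a gene with several matches of 1 kind, of which Acly did not pass the 8 min test below. Capitals mark the letters matched on either strand: CACGTG (E-box), CCAAT (NF-Y; ATTGG on the other strand) and GGGCGG (Sp1; CCGCCC on the other strand). None of the marked matches overlap.
Elovl5 promoter, chr9:77917115-77917364, plus strand: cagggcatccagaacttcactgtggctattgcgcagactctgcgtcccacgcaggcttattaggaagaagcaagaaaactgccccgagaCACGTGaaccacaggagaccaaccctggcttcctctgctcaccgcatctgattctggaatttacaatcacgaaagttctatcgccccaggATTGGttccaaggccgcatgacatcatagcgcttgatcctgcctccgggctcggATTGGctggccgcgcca
Fads2 promoter, chr19:10101504-10101753, minus strand: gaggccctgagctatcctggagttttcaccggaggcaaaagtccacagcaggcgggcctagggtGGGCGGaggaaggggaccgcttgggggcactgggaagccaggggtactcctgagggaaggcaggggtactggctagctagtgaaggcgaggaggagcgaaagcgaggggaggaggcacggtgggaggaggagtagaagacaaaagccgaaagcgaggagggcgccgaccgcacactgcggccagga
Acly promoter, chr11:100528001-100528250, minus strand: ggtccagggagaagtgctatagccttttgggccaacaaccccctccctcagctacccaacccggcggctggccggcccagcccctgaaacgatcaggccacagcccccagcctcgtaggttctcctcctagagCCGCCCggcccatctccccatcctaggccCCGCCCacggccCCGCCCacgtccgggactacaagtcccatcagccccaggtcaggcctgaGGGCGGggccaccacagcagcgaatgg

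The NF-Y letters occurred in 3 of the 7 promoters (Fasn, Elovl5 and Acss2), against 33.8% of all 32851 promoters of the same length. Sp1 letters occurred in 3 of the 7 (Acss2, Acly and Fads2), against 32.7% of all promoters. The E-box was matched in Elovl5 alone, at a share of 6.02% of all promoters. The sterol response element, searched as TCACNCCAC on both strands, had no match in the 7 windows and was present in 1.05% of all promoters. The listed starts of Fasn and Acaca lie inside the annotated span of the gene, so their windows do too, and the Acaca window held none of the 4 motifs. In the Fasn window the CCAAT matches began at positions −90, −62 and −59 from the listed start, and the matches at −62 and −59 overlap. These matches describe letters only.

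The libraries held 118 M and 134 M recovered reads (M, mega) with 4OHT at 8 min, 112 M and 93.1 M with DMSO at 8 min, 58.3 M and 57.6 M with 4OHT at 0 min and 61.4 M and 46.3 M with DMSO at 0 min. A 0 min label leaves no time for tagging, so those libraries may hold mainly untagged RNA that passed the purification. The noncoding transcript Gm26917 alone took 23.2% to 27.7% of their reads, against 2.67% to 3.92% at 8 min. The deposited value is a normalised read count, in which each library's reads were divided by a number of its own. On that scale the median entry was higher with 4OHT at 8 min by 1.43 on the log2 scale, so each gene is given on the deposited scale and also relative to the other entries, after median-ratio scaling of the 4 libraries of the same label time. Ythdc1, read over the whole gene, averaged 2277 ± 292 scaled units with 4OHT and 3232 ± 464 with DMSO at 8 min (SD, n = 2 each; log2 fold change −0.50 ± 0.11, SE; limma adjusted p = 0.00187), and which part is deleted is not given in the sources used here. At 0 min it averaged 215 ± 78.8 with 4OHT and 175 ± 18.1 with DMSO (SD, n = 2 each) and did not pass (0.25; limma adjusted p = 1). On the deposited scale its 8 min log2 fold change was 0.93 and did not pass (limma adjusted p = 0.174). Nothing in the labels says that the 2 libraries of a group came from separate cultures, so the p-values cover the spread among the libraries at hand, and that spread may be technical.

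At 8 min after release from DRB, RNA of 7 of the 10 genes was lower with 4OHT than with DMSO relative to other entries, and all 10 fold changes were negative. The 2 stearoyl-CoA desaturases stood far apart from the rest, Scd1 at 10.9-fold lower and Scd2 at 5.06-fold lower. Fasn, Fads1, Fads2, Elovl6 and Elovl5 fell by smaller amounts, between 2.13-fold and 1.30-fold. Acss2, Acaca and Acly, which supply the 2-carbon and malonyl units, did not pass the threshold. Over all entries tested, 14.8% were called lower and 19.2% higher by the same rule (limma, Benjamini-Hochberg adjusted p under 0.05, two-sided). The median log2 fold change of the 10 genes was −0.73, beside 0.02 for all entries. The count of genes called lower was 2, Scd1 and Scd2, when the spread was estimated from all 8 libraries scaled together, and 0 without the filter on low values.

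**Figure D1:**
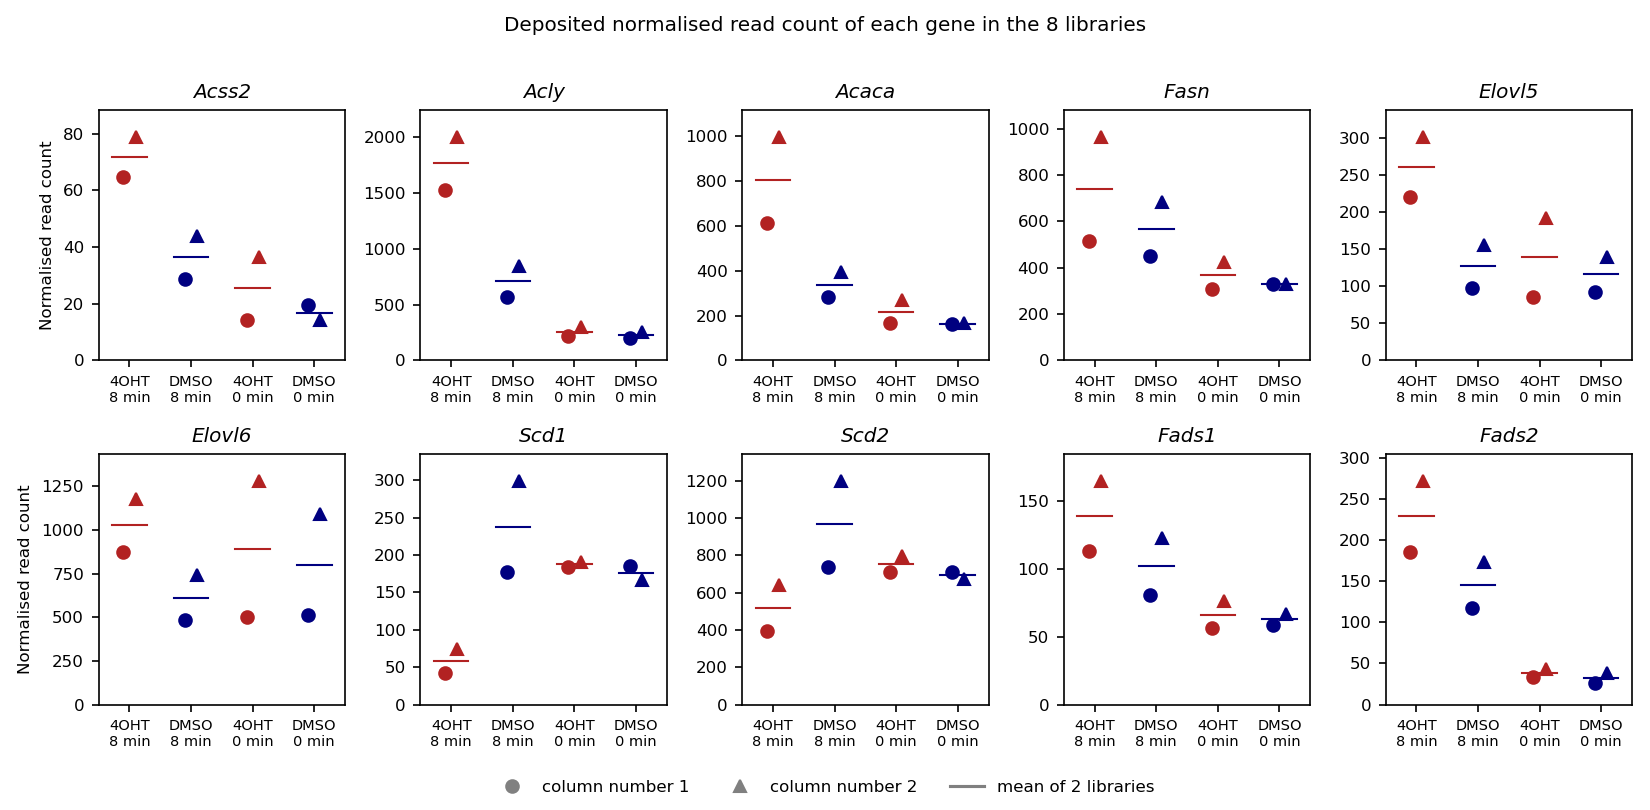
Deposited normalised read count (vertical axes, from 0) of each gene in the 8 libraries; points are libraries, their shape gives the number in the column name and lines are means of 2 libraries. Scd1 and Scd2 lie lowest in the 4OHT 8 min libraries, whereas Acly, Acaca, Elovl5, Fads2 and Acss2 lie highest there.

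Relative to other entries, the desaturases of saturated chains fell most among the 10 genes at 8 min. Scd1 (gene ID 20249; chr19:44394450-44407709, GRCm38.p6) had deposited counts of 42.0 and 73.9 in the 4OHT libraries at 8 min, against 177 and 299 in the DMSO libraries at 8 min. After scaling within the label time these were 32.2 and 35.5 with 4OHT, against 364 and 393 with DMSO. The groups did not overlap on either scale, and the 2 libraries of each group lay close together after scaling. Scd1 fell by 3.45 on the log2 scale (± 0.14, SE; limma adjusted p = 4.39e-12). It rested on 474 and 598 reads with 4OHT, against 5210 and 4468 reads with DMSO, which is 4.00 and 4.47 reads in each M of recovered reads with 4OHT, against 46.6 and 48.0 with DMSO. Among the 9587 entries with a mean scaled value of at least 100 over the 8 min libraries Scd1 had the lowest log2 fold change, and it stood 4th lowest of all 21652.

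Scd2 (gene ID 20250; chr19:44293676-44306864), the isoform known to be prominent in embryonic and neural tissue, had 392.4 and 641.8 deposited counts with 4OHT, against 737.9 and 1198.1 with DMSO at 8 min. Scaled values were 301 and 308 with 4OHT, against 1521 and 1575 with DMSO. Again all 4OHT libraries lay below all DMSO libraries on both scales. The scaled means were 305 ± 4.90 with 4OHT and 1548 ± 38.2 with DMSO (SD, n = 2 each), a log2 fold change of −2.34 ± 0.10 (SE; limma adjusted p = 4.67e-12). Scd1 and Scd2 are close paralogues, and how reads matching both were counted is not given in the sources used here, so the split of reads between them is uncertain. The microRNA gene Mir5114 lies inside Scd2 and moved with it by −2.33 (limma adjusted p = 3.25e-09), from reads that may belong to Scd2.

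Fasn (gene ID 14104; chr11:120805958-120825166), the multienzyme that builds palmitate, had deposited counts of 516 and 964 with 4OHT, against 451 and 682 with DMSO at 8 min. The groups overlapped on this scale. Scaled values were 397 and 463 with 4OHT, against 930 and 897 with DMSO, and did not overlap. Fasn fell by 1.09 on the log2 scale (± 0.11, SE; limma adjusted p = 2.94e-07).

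The desaturases of polyunsaturated chains are neighbours on chromosome 19. Fads1 (gene ID 76267; chr19:10182877-10196874) had scaled values of 86.7 and 79.1 with 4OHT, against 166 and 162 with DMSO at 8 min, a fall of 1.97-fold (log2 fold change −0.98 ± 0.14, SE; limma adjusted p = 2.79e-05). Fads2 (gene ID 56473; chr19:10062765-10101503) had 143 and 130 with 4OHT, against 242 and 228 with DMSO, a fall of 1.72-fold (−0.78 ± 0.13, SE; limma adjusted p = 0.000105). Both pairs were separate after scaling. Without scaling the deposited counts ran the other way or overlapped, with Fads1 at 113 and 165 in 4OHT libraries, against 80.7 and 123 in DMSO libraries, and Fads2 at 186 and 271 in 4OHT libraries, against 117 and 173 in DMSO libraries.

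The elongases changed less. Elovl6 (gene ID 170439; chr3:129532386-129638495), which lengthens palmitate to stearate, had scaled values of 673 and 566 with 4OHT, against 995 and 978 with DMSO at 8 min (log2 fold change −0.68 ± 0.11, SE; limma adjusted p = 7.46e-05). Elovl5 (gene ID 68801; chr9:77917365-77984519), which lengthens polyunsaturated chains, had 170 and 145 with 4OHT, against 202 and 206 with DMSO (−0.38 ± 0.13, SE; limma adjusted p = 0.032). Both fell, but the call on Elovl5 rested on single libraries: its limma adjusted p was 0.283 without 4OHT library number 2, 0.0502 without DMSO library number 1 and 0.0766 without DMSO library number 2. On the deposited scale Elovl6 had 877 and 1178 with 4OHT, against 483 and 744 with DMSO, and Elovl5 had 221 and 302 with 4OHT, against 98.1 and 157 with DMSO, so that both were higher with 4OHT there.

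The enzymes that supply acetyl-CoA and malonyl-CoA did not pass the relative test. Acss2 (gene ID 60525; chr2:155518043-155562743) had scaled values of 49.8 and 37.9 with 4OHT, against 59.3 and 57.9 with DMSO at 8 min, a log2 difference of −0.42 with a 95% interval of −0.82 to −0.02 (limma adjusted p = 0.095). Acaca (gene ID 107476; chr11:84129635-84401651), the enzyme of the committed step, had 470 and 478 with 4OHT, against 578 and 516 with DMSO, a difference of −0.20 with an interval of −0.43 to 0.02 (limma adjusted p = 0.156). Acly (gene ID 104112; chr11:100476352-100528000) had 1173 and 960 with 4OHT, against 1176 and 1114 with DMSO, a difference of −0.11 with an interval of −0.33 to 0.12 (limma adjusted p = 0.471). The scaled groups of Acly overlapped, while Acss2 and Acaca lay lower in both 4OHT libraries. How many of all entries separate in this way was not counted. The intervals of Acaca and Acly exclude falls as large as those of Fasn, Fads1 or either Scd gene. Tada2a, a coactivator subunit gene that overlaps Acaca, had scaled values of 398 and 305 with 4OHT, against 239 and 202 with DMSO, and whether strand was used in counting is not given in the sources used here.

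The direction of 8 of the 10 genes depended on the scale. On the deposited scale the 8 min log2 fold changes were −2.03 for Scd1 and −0.90 for Scd2, and then 0.35 for Fasn, 0.45 for Fads1, 0.65 for Fads2, 0.76 for Elovl6, 0.98 for Acss2, 1.05 for Elovl5, 1.23 for Acaca and 1.33 for Acly. Only Scd1 was called (limma adjusted p = 0.00701), among 0.12% of all entries called lower and 56.4% called higher. The interval of Scd1, −3.20 to −0.85 with an SE of 0.60, was that of a normal distribution. The fit thus took the spread as known, although each group held 2 libraries. At 8 min the scaling factors, common to all entries of a library, were 1.30 and 2.08 with 4OHT and 0.485 and 0.761 with DMSO. The p-values on this scale and the share called higher therefore treat a library-wide shift between groups of 2 libraries as precisely known. Acly and Acaca were higher at an unadjusted p under 0.05 and did not pass the adjustment (limma adjusted p = 0.0577 for Acly and 0.0676 for Acaca). These calls depended on the fit. Over the alternative fits, 0 to 2 members were called lower and 0 to 8 higher, with the highest counts when the library number was a block. Among all entries the same fits called 2 to 135 lower and 187 to 20283 higher. The call on Scd1 did not survive the loss of any single 8 min library, with adjusted p-values of 0.0593 and 0.0894 without 1 of the 4OHT libraries and 0.0828 and 0.0621 without 1 of the DMSO libraries. All 10 genes lay below the median shift of 1.43 on this scale. Scaling by the spike-in reads gave log2 fold changes of −3.35 for Scd1, −2.24 for Scd2, −0.99 for Fasn, −0.88 for Fads1, −0.68 for Fads2 and −0.58 for Elovl6, of which none passed (limma adjusted p = 0.193 for Scd1 and 1 for the others). In a bulk measurement such as this, fewer cells of a type and less RNA per cell cannot be told apart.

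**Figure D2:**
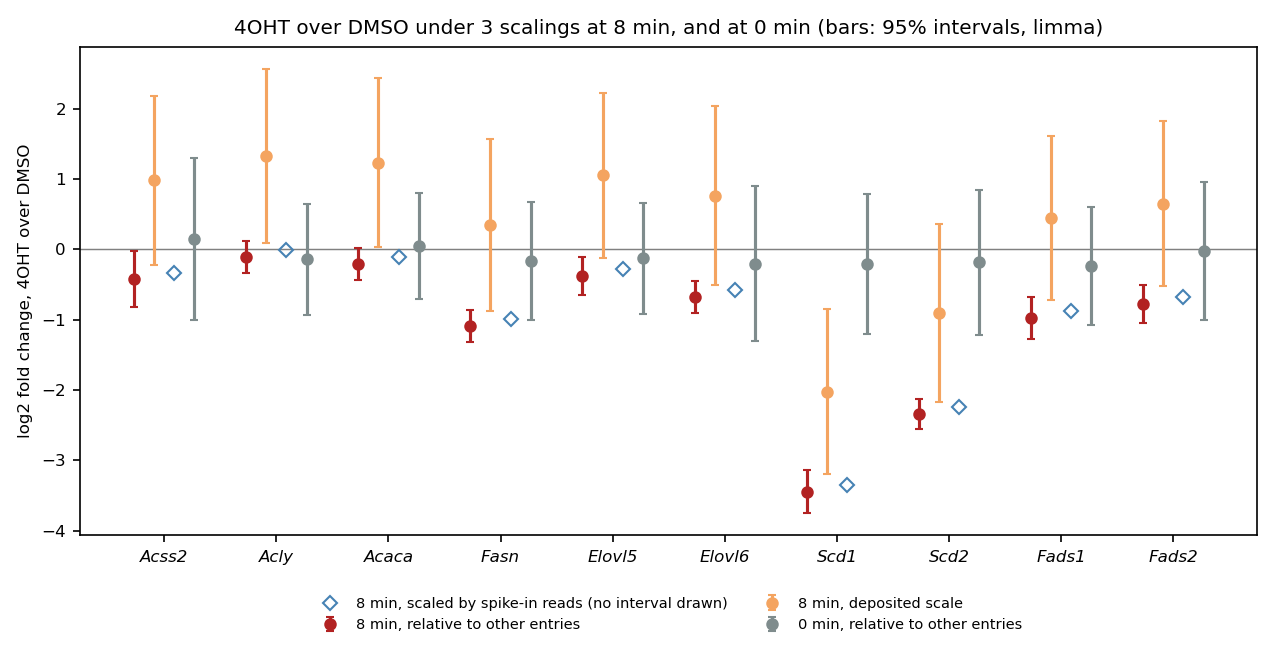
Log2 fold change of 4OHT over DMSO (vertical axis) for each gene at 8 min under 3 scalings and at 0 min; bars are 95% intervals from limma, and the spike-in points carry none. Scd1 lies below 0 under all 3 scalings at 8 min, Scd2 also does with an interval that spans 0 on the deposited scale, and all 10 intervals at 0 min span 0.

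In the 0 min libraries the difference between treatments was not seen. By the titles these came from ESC number 1 and the 8 min libraries from number 2, while the column names carry both numbers at both times. Label time and line therefore cannot be told apart, here or in the tests across label times below. At 0 min Scd1 had deposited counts of 184 and 191 with 4OHT, against 185 and 167 with DMSO, and Scd2 had 712 and 798 with 4OHT, against 711 and 676 with DMSO. The relative log2 fold changes of the 10 genes ran between −0.24 (Fads1) and 0.15 (Acss2). The scaled groups overlapped for all 10, and how many of all entries overlap in this way was not counted. For Scd1 the difference was −0.21 with a 95% interval of −1.20 to 0.79, which excludes a fall of the size seen at 8 min. None of the 10 genes was called, nor was any of the 21652 entries (0% lower and 0% higher), by limma, edgeR or DESeq2. At an unadjusted p under 0.05 there were 235 entries by limma, 149 by edgeR and 271 by DESeq2, none of them among the 10 genes.

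Elovl6 and the spike-ins set the 0 min libraries with number 2 apart. Deposited Elovl6 counts at 0 min were 502 and 1280 with 4OHT, against 513 and 1090 with DMSO, high in the number 2 library of both treatments. Elovl5 followed the same split, with 85.8 and 193 in 4OHT libraries, against 92.9 and 140 in DMSO libraries. Spike-in reads in the number 2 libraries at 0 min were 385228 with 4OHT and 286488 with DMSO, while the number 1 libraries held 59088 with 4OHT and 73608 with DMSO. The part of this spread in the 0 min results was not tested.

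The test of the difference itself, the 4OHT effect at 8 min less that at 0 min over all 8 libraries, called none of the 10 genes and no other entry (0% lower and 0% higher). At an unadjusted p under 0.05 it held 1300 entries by limma and 1326 by edgeR. Scd1, Scd2, Fasn and Fads1 were among those by limma, and Scd1, Scd2 and Fasn among those by edgeR. The difference for Scd1 was −3.25 with a 95% interval of −4.22 to −2.28 (limma adjusted p = 0.42, and 0.29 by edgeR). For Scd2 it was −2.20 with an interval of −3.07 to −1.33 (limma adjusted p = 0.666).

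Set against their own 0 min level with all 8 libraries scaled together, 6 of the genes were lower at 8 min in 4OHT cells and 0 were higher by limma (1 at an unadjusted p under 0.05, Acly), where 21.7% of all entries were lower and 34.3% higher. Scd1 averaged 18.9 ± 1.37 scaled units at 8 min, against 313 ± 125 at 0 min in 4OHT cells (SD, n = 2 each; log2 fold change −3.92; limma adjusted p = 7.38e-05). The other 5 were Scd2 (−2.82), Elovl6 (−1.89), Fasn (−1.27), Elovl5 (−1.22) and Fads1 (−1.16). In DMSO cells 2 were lower, Elovl6 (−1.37) and Elovl5 (−0.93), and 1 was higher, Fads2 (1.11; limma adjusted p = 0.00788), where 21.4% of entries were lower and 33.9% higher. Scd1 averaged 217 ± 14.5 at 8 min, against 348 ± 72.7 at 0 min in DMSO cells, and did not pass (−0.67; limma adjusted p = 0.0888). Acly was at 0.55 in 4OHT cells and 0.56 in DMSO cells, neither past the threshold. These directions depended on the scale. On the deposited scale 1 member was lower and 4 were higher in 4OHT cells, where 169 of all entries were lower and 16166 higher. Fasn (0.96), Elovl5 (1.00), Elovl6 (0.34) and Fads1 (1.05) were positive there. In DMSO cells 0 members were lower and 2 higher on that scale, where 391 of all entries were lower and 10049 higher. The 2 treatments were not tested against each other beyond the difference given above, and the titles give 1 cell line number at each label time while the column names carry both numbers at both times, so that label time and line cannot be told apart.

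**Figure D3:**
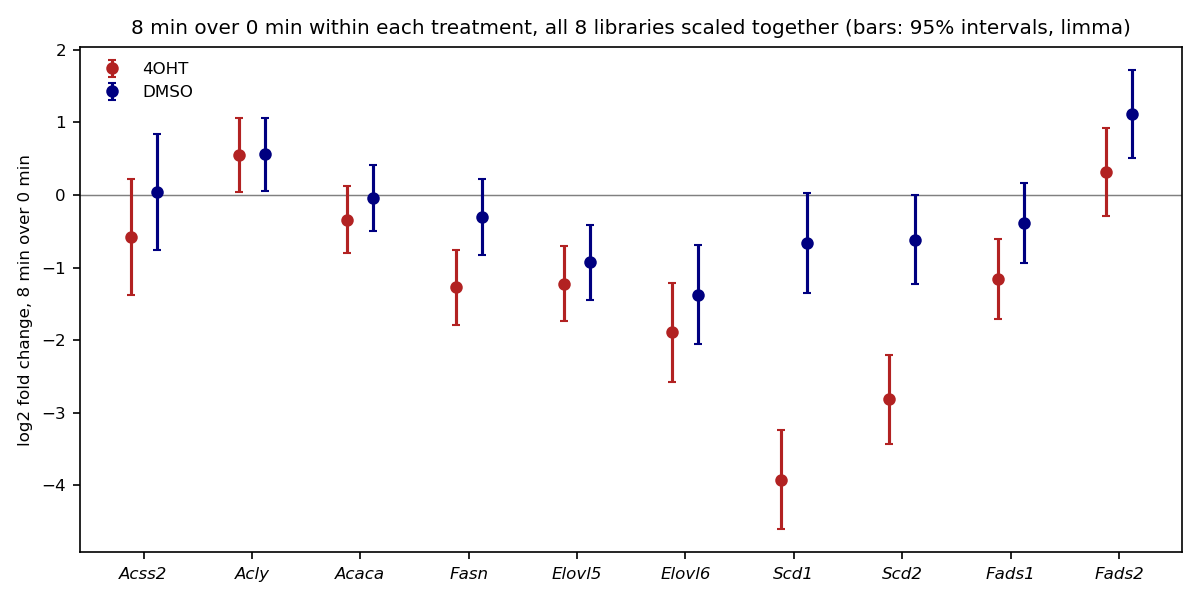
Log2 fold change of 8 min over 0 min (vertical axis) for each gene within 4OHT cells and within DMSO cells, with 95% intervals from limma. All 8 libraries were scaled together, and the deposited scale is not drawn. In Scd1 and Scd2 the 4OHT intervals lie entirely below the DMSO intervals, while in Acly both treatments are near 0.55.

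The genes differed in annotated length. The 4 genes of lowest log2 fold change at 8 min, Scd1, Scd2, Fasn and Fads1, were also the 4 whose annotated span is up to 20 kb (13.3, 13.2, 19.2 and 14.0 kb). Among all 5616 protein-coding genes tested with a span up to 20 kb, the median of 4OHT over DMSO at 8 min was −0.03. It was 0.12 for 4587 genes of 20 to 60 kb and 0.19 for 3210 genes of 60 to 300 kb, the class of Elovl5, Elovl6 and Acaca.

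Apart from Mir5114 and Scd4, the entries around the Scd cluster on chromosome 19 were not called lower. Over all entries tested, 14.8% were called lower and 19.2% higher. Of the 11 other entries tested within 250 kb of Scd1 or Scd2, 2 were lower, 2 higher and 7 not called. Those lower were Mir5114 and Scd4, another desaturase paralogue, at scaled values of 2.86 and 3.80 with 4OHT, against 12.6 and 30.6 with DMSO (log2 fold change −2.27; limma adjusted p = 0.000239). Scd3, on the far side of Scd2, did not pass (−0.32; limma adjusted p = 0.301). Ndufb8, a subunit of respiratory complex I, was higher by 0.41, and Hif1an, a hydroxylase of hypoxia-inducible factor, by 0.35. Around the Fads pair, 1 of 11 was lower (Best1, −0.70), 2 were higher (Rab3il1, 1.74, and Myrf, 0.54) and 8 were not called, among them the third family member Fads3 (−0.05). Best1 ran the other way on the deposited scale, with 351 and 552 in 4OHT libraries, against 217 and 321 in DMSO libraries.

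**Figure D4:**
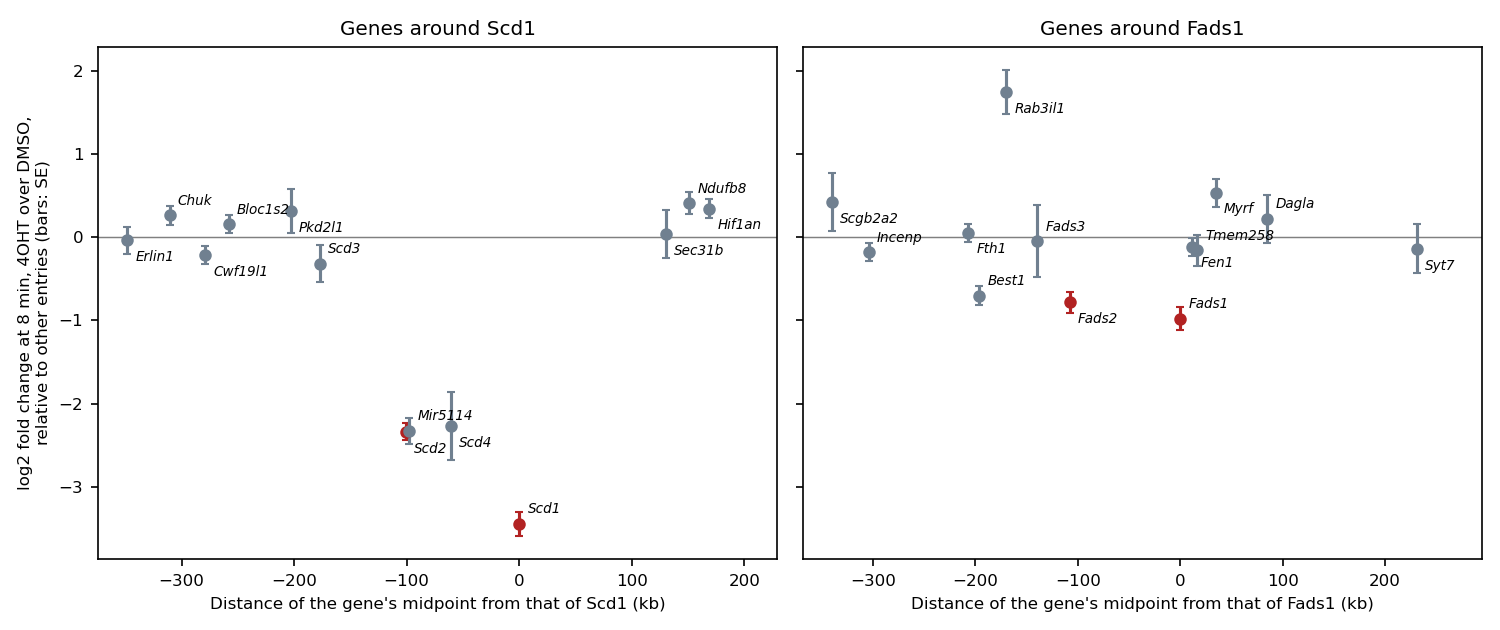
Log2 fold change at 8 min, 4OHT over DMSO relative to other entries (vertical axis, bars are SE), against the distance of each tested gene's midpoint from that of Scd1 (left) or Fads1 (right), in kb. Red points are the genes described here; Scd1, Scd2, Scd4 and Mir5114 lie at −2.27 or below while the other genes of the left panel lie between −0.32 and 0.41, and on the right Best1 (−0.70) and Rab3il1 (1.74) mark the range of the genes around Fads1 and Fads2.

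By profile over the 8 libraries, Scd2 and Fasn lay closest to Scd1. Among 5186 protein-coding genes with a mean scaled value of at least 100, Pearson's r with Scd1 was 0.9986 for Scd2 and 0.9908 for Fasn, followed by Sntg1 (0.9606), Slc2a3 (0.956) and Atn1 (0.9538). Acly ranked 2076th at −0.444. These values describe 8 libraries that share depth, label time and scaling, and the 2 label times form separate clusters. Slc2a3, a neuronal-type glucose transporter, had scaled values of 472 and 507 with 4OHT, against 1150 and 1270 with DMSO at 8 min when all 8 libraries were scaled together.

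Genes next to the pathway were called in both directions, as were entries at large (14.8% lower and 19.2% higher), and no list was tested against the rest. The regulators of lipogenesis, 20 tested, had 7 lower and 4 higher at 8 min on the relative scale, with a median of −0.06. Of the sterol-regulated activators, Srebf1 fell by 0.67 (limma adjusted p = 0.000111) and Srebf2 by 0.70 (9.4e-05). Insig1, which retains these factors in the endoplasmic reticulum, fell by 1.02 (limma adjusted p = 4.6e-07). Scap, the escort that carries the factors to the Golgi, rose by 1.4 (limma adjusted p = 1.19e-06), and the stress-induced pseudokinase Trib3 by 1.28 (2.8e-05). Suppliers of precursors and NADPH, 9 tested, had 4 lower and 1 higher, with a median of −0.27. Among them the citrate carrier Slc25a1 fell by 0.92, the malic enzyme Me1 by 1.05 and Idh1 by 0.41, while the mitochondrial Me2 rose by 0.42.

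Other elongation, desaturation and reduction enzymes (19 tested) had 4 lower and 2 higher, with a median of −0.08. Scd4 (−2.27) and the cytochrome b5 gene Cyb5b (−1.20) fell, and the elongase Elovl7 (1.09) and the dehydratase Hacd2 (0.98) rose. Acyl-CoA synthetases (14 tested) had 3 lower and 3 higher, with Acsl3 (−0.64), Acss1 (−0.75) and Acsf2 (−1.23) lower and Slc27a2 (0.72) higher among those named. The mitochondrial fatty acid synthesis genes (8 tested) had 0 calls in either direction by limma and 1 gene higher at an unadjusted p under 0.05, and their values lay between −0.37 and 0.33.

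Consumers of fatty acids had calls in both directions. Of 23 tested genes of mitochondrial and peroxisomal oxidation, 3 were lower and 10 higher, with a median of 0.36, beside 14.8% lower, 19.2% higher and a median of 0.02 over all entries, and whether the list differs from other entries was not tested. Those lower were Cpt1a (−0.71), Acadvl (−0.49) and Cpt1c (−0.44), while Hadhb (0.49), Hadh (0.57), Echs1 (1.13) and Etfdh (0.61) of the oxidation spiral and its electron transfer rose. Glycerolipid assembly (19 tested) had 3 lower and 6 higher with a median of 0.13, led by the acyltransferase Gpam (1.4), Lpin2 (1.03), Agpat5 (0.88) and Agpat4 (0.49). The sterol genes, which share activators with these enzymes, had 21 of 22 lower and 0 higher with a median of −1.26, among them Idi1 (−1.42), which isomerises isopentenyl diphosphate, and Stard4 (−1.71), a sterol carrier. On the deposited scale the medians of these lists were 0.15 for sterol genes, 1.79 for oxidation, 1.56 for glycerolipid assembly, 1.35 for regulators and 1.16 for precursor supply, beside 1.43 for all entries. Among the genes of these lists named as lower, Scd4 (−1.02) and Stard4 (−0.27) kept a negative sign on that scale and the others were positive, and none of them was called there (limma adjusted p of 0.116 or more).

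**Figure D5:**
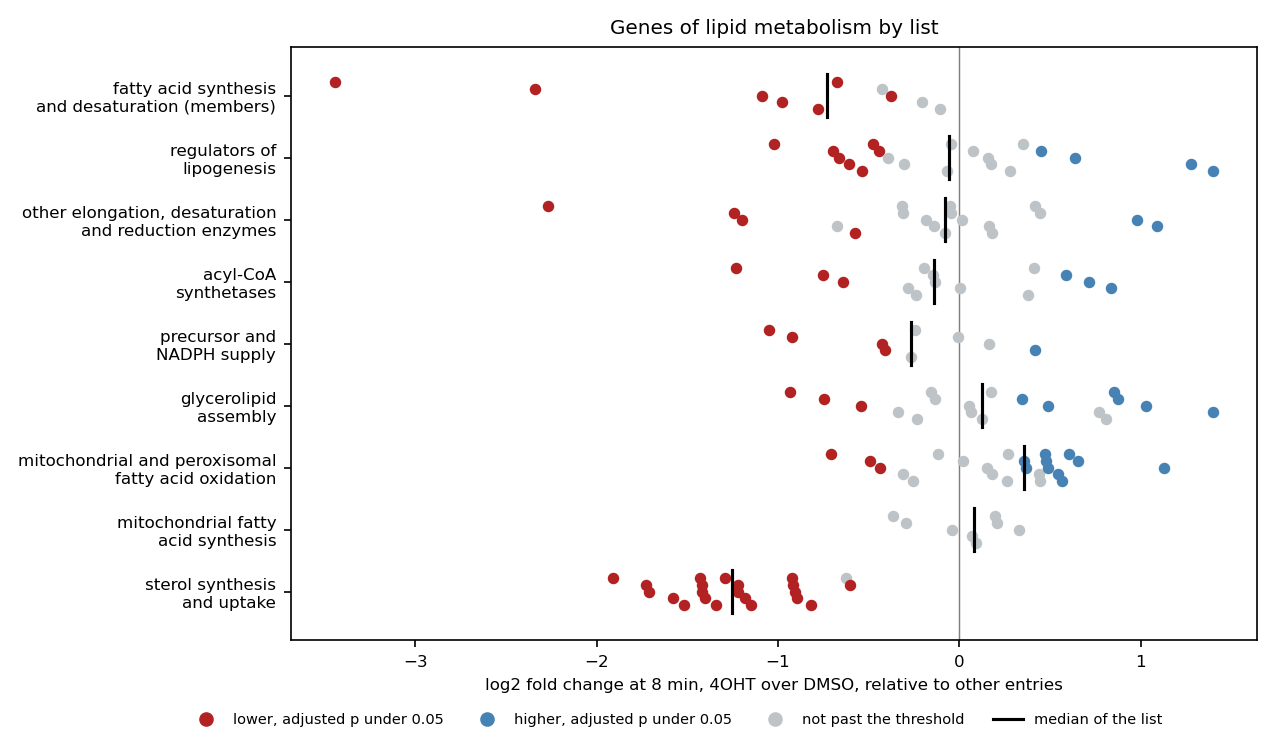
Log2 fold change at 8 min, 4OHT over DMSO relative to other entries (horizontal axis), for each tested gene of the 10 members and of 8 neighbouring lists of lipid metabolism (rows); colours give the limma call and black bars the median. The members reach from −3.45 to −0.11, the sterol list lies wholly below 0 and the oxidation list has its median at 0.36.

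Markers of cell types were summed over the same scaled values at 8 min. Over all entries, 14.8% were called lower and 19.2% higher. The 8 embryonic stem cell markers were all present and summed to 5630 and 5640 with 4OHT, against 6830 and 6330 with DMSO. Of these 3 were lower (Nanog, −0.98, Tdgf1, −0.63, and Dppa5a, −0.45) and 1 was higher (Sox2, 0.46). Pou5f1, Zfp42, Esrrb and Klf4 were not called. The 7 markers of 2-cell-like cells summed to 263 and 251 with 4OHT, against 23.9 and 26.9 with DMSO, and all 5 that were tested rose. The 6 adipocyte markers, from a cell type rich in Scd1, summed to 15.4 and 12.6 with 4OHT, against 60.7 and 95.6 with DMSO. Of these Adipoq fell by 3.14 (limma adjusted p = 2.47e-07), while Plin1 and Fabp4 stayed under 4 in each 8 min library. The 6 hepatocyte markers summed to 9.59 and 8.13 with 4OHT, against 19.5 and 34.2 with DMSO, with Serpina1a at 0 in all 4 libraries. Ttr alone had 2.86 and 3.92 with 4OHT, against 15.2 and 32.2 with DMSO, while Apoa1 ran the other way (3.47 and 2.67 against 0.769 and 0.176). Only 1 marker passed the filter in each of these 2 lists, Adipoq and Ttr, and both were also present without label. In the 0 min libraries, scaled among themselves, Ttr had 21.8 and 34.2 with 4OHT, against 26.6 and 57.4 with DMSO. Adipoq had 35.2 and 51.2 with 4OHT there, against 51.2 and 99.2 with DMSO. The 7 fibroblast and feeder markers summed to 17.4 and 30.6 with 4OHT, against 38.4 and 50.4 with DMSO. Primitive endoderm markers (6) summed to 94.5 and 94.7 with 4OHT, against 88.4 and 75.0 with DMSO. Trophoblast markers (6) summed to 45.7 and 69.6 with 4OHT, against 76.1 and 92.5 with DMSO. Among the trophoblast markers Krt7 was higher (1.37), while Krt8 (−0.96) and Krt18 (−1.11) were lower. The part of these shifts in the results on the 10 genes was not tested.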

How the data were processed

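The authors deposited signal values of 8 libraries in 1 table of 38971 entries, among them genes, repeats, structural RNAs and 60 spike-ins, built per the submitters' processing notes with bcl2fastq, STAR 2.7, Bowtie2 and mm10, whose roles, like the annotation, strand and treatment of multi-mapping reads, are not given in the sources used here. The deposited signal was whole reads over a divisor of each library's own (8.095 to 29.49): multiplied back, 99.9923% to 100% of values lay within 0.01 of a whole number. What that divisor stands for is not stated. Groups came from the labels, and a column that names no 4OHT was taken as DMSO. Columns were assigned to groups only, since their numbers 1 and 2 do not match the titles. After median-ratio scaling, same-numbered libraries deviated together in part (r = 0.093 at 8 min, 0.436 at 0 min). These r values leave out the deposited scale, on which number 2 was the higher library in both 8 min groups. There the scaling factors of numbers 1 and 2 were 1.30 and 2.08 with 4OHT, and 0.485 and 0.761 with DMSO. The labels do not tie the numbers, so same-numbered libraries were not treated as pairs.

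Entries of at least 10 in at least 2 libraries (21652) were analysed as log2(value + 1), which understates changes of low entries, by limma 3.58.1 with a trended prior under R 4.3.3 (two-sided tests, Benjamini-Hochberg over all 21652). The relative tests used the 4 libraries of a label time after median-ratio scaling; the deposited-scale test, the difference and the 8 against 0 min tests used all 8 libraries. Alternatives were count tests of the recovered reads (edgeR 4.0.16, DESeq2 1.42.0), other pseudocounts, filters, scalings and priors, the library number as a block, and each library left out in turn. The limma fit of the relative 8 min test was run on simulated counts with known changes, and the other fits were not. Named genes were all 10 members, Ythdc1, up to 4 genes of smallest p per list (some of these are not reported here) and the 5 genes most like Scd1; neighbours of the Scd and Fads genes, Tada2a, single markers and the oxidation genes called lower were named after their values were seen. The members and lists were chosen with earlier results of these data known. Coordinates and promoters are RefSeq's (GRCm38.p6, the mm10 assembly). Counting error alone understates the spread, since reads are not independent molecules.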

Additional observations from a re-analysis of the deposited data

How the results depend on the processing

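Relative to other entries at 8 min, the 7 lower members became 0 without the filter on low values, 0 with spike-in scaling and 2 (Scd1 and Scd2) with all 8 libraries scaled together; over all entries the lower and higher calls, 3195 and 4152, became 0 and 0, 4 and 5, and 19 and 2 under these settings, and 1943 and 2462 without a trended prior, where Elovl5 also lost its call (adjusted p = 0.122). Leaving out each library gave 6 to 7, edgeR, DESeq2 and the replicate block each called 7. On the deposited scale the replicate block called 2 members lower and 5 higher, and within the 4 libraries of 8 min alone, an alternative added after seeing the data, 2 lower and 8 higher, against 1 and 0 without it; leaving out each library gave 0 to 1 lower and 0 to 2 higher, and 187 to 15059 entries higher. For 8 against 0 min in 4OHT cells, 6 lower and 0 higher became 1 and 4 on the deposited scale, 1 was higher with the block, and 0 to 1 were higher leaving out each library. In DMSO cells, 2 lower and 1 higher became 0 and 2 on the deposited scale, 4 lower with edgeR and 2 higher with the block, and leaving out each library gave 1 to 4 lower and 0 to 2 higher. The cause of these moves was not tested, except that the block takes up the library number. With the block the difference for Scd1 had an adjusted p of 0.0583.

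Between the relative and the deposited scale at 8 min the signs of 8 members differ, as reported, among them the called Fasn, Fads1, Fads2, Elovl6 and Elovl5. Within each test's own alternatives, signs changed only for values that had not passed, except in the 8 against 0 min tests on the deposited scale, where Fasn, Elovl5, Elovl6 and Fads1 in 4OHT cells and Elovl5 in DMSO cells, called lower before, became positive. On that scale the difference became 0.21 for Fasn, 0.88 for Acaca, 1.17 for Acly, 0.54 for Acss2, 0.88 for Elovl5, 0.66 for Elovl6, 0.39 for Fads1 and 0.38 for Fads2. The change from 0 to 8 min became, in 4OHT cells, 0.96 for Fasn, 1.89 for Acaca, 1.59 for Acss2, 1.00 for Elovl5, 0.34 for Elovl6 and 1.05 for Fads1, and in DMSO cells 0.38 for Scd1, 0.44 for Scd2, 0.75 for Fasn, 1.01 for Acaca, 0.12 for Elovl5 and 0.66 for Fads1; edgeR gave −0.26 for Acss2 in DMSO cells. Leaving out each library, Acly ran from −0.25 to 0.038 at 8 min and Fasn from −0.10 to 0.80 on the deposited scale. At 0 min the ranges were −0.065 to 0.169 for Acaca, −0.36 to 0.076 for Acly, −0.21 to 0.51 for Acss2, −0.29 to 0.031 for Elovl5, −0.61 to 0.21 for Elovl6, −0.31 to 0.26 for Fads2, −0.39 to 0.063 for Fasn, −0.64 to 0.22 for Scd1 and −0.56 to 0.19 for Scd2. The difference ran from −0.21 to 0.22 for Acly, and the change in DMSO cells from −0.18 to 0.063 for Acaca and from −0.35 to 0.39 for Acss2. Acss2 had no value under the minimum of 100.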
